A study of Mus musculus with 10 samples.

Results

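Glutathione synthesis and the targets of Nrf2 were examined in the livers of diabetic mice that received either a control virus or a virus carrying the gene under study. The 10 genes were taken by symbol, and they were chosen with earlier results of these data known. Gclc, Gclm, Gss and Gsr make and recycle glutathione, Nqo1, Txnrd1, Srxn1 and Hmox1 are enzymes induced by Nrf2, and Nfe2l2 and Keap1 encode Nrf2 and its inhibitor. All 10 were among the 15126 genes of the deposited table and all 10 passed the filter on low levels, with 11027 genes tested in all.

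RNA-seq was performed on 10 liver samples of db/db mice, which lack a working leptin receptor and become obese and diabetic. The 5 AAV8-Control samples carried adeno-associated virus 8 with eGFP, and the 5 AAV8-Treated samples carried the same kind of virus with the gene under study. All mice were male and 10 weeks old, were taken 5 weeks after infection, and received virus by tail vein, so that both groups share the db/db genotype and an AAV8 infection. The promoter of the vectors was not given in the sources used here, and livers without virus were not analysed here. The labels give liver as the tissue but also name primary hepatocytes, with protocols for cultured cells and adenovirus. They do not tie the samples to separate mice, and each sample is called a liver here.

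The values are read counts scaled to the library total (CPM), and 1 read was worth 0.0282 to 0.0513 CPM. Libraries held 19499795 to 35498596 reads in AAV8-Control and 21656201 to 26124038 in AAV8-Treated. Of the markers of other cells, 13 of 13 macrophage, 7 of 7 endothelial, 7 of 7 stellate, 5 of 6 erythroid, 4 of 6 cholangiocyte and 1 of 9 lymphoid and neutrophil markers passed the filter, and 1 cholangiocyte marker was at 0 in some libraries. All 12 hepatocyte markers were tested, 7 higher and 5 lower in AAV8-Treated, and 3 of the higher and 0 of the lower had an unadjusted p under 0.05 by limma, beside 4.99% of all genes that were higher at this p. Their summed level was 109823 to 148529 CPM in AAV8-Control and 120625 to 136192 CPM in AAV8-Treated livers (p = 0.929, two-sided exact permutation test). The summed level of the 8 lymphoid and neutrophil markers in the table was 4.54 to 8.76 CPM in the AAV8-Control livers and 4.21 to 5.67 CPM in AAV8-Treated (two-sided exact permutation test, p = 0.0397). Summed macrophage markers were 223 to 460.5 CPM and 224 to 375 CPM (p = 0.571, exact permutation test), with 12 of 13 lower in AAV8-Treated and none of these 12 with an unadjusted p under 0.05. The part of other cell types in the results was not tested. In whole liver, fewer cells of a type and less RNA per cell cannot be told apart.

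Glutathione is the main small thiol of the hepatocyte. Glutamate-cysteine ligase, made of a catalytic subunit (Gclc) and a modifier subunit (Gclm), sets the rate of its synthesis, glutathione synthetase (Gss) adds glycine, and glutathione reductase (Gsr) regenerates it with NADPH. Nrf2 is a transcription factor that Keap1 holds for degradation through the Cul3 ubiquitin ligase. When oxidants or electrophiles modify Keap1, Nrf2 accumulates, pairs with small Maf proteins and binds antioxidant response elements. Nrf2 is thus controlled largely at the protein level, which RNA-seq does not measure.

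The core of the antioxidant response element, TGACNNNGC, was searched on both strands in promoters from RefSeq (GRCm38.p6, 250 bases before to 50 bases after each start). The table held 9 promoters for 7 of the 10 genes. Gclc, Gsr and Hmox1 had no entry. The core was present in 4 of the 9 promoters, 1 each of Nfe2l2, Gclm, Txnrd1 and Srxn1, beside 12.4% of all 32851 promoters of the same length and 14.2% of the 11233 promoters of tested genes. These 4 stretches of 29 bases are shown because they hold the letters to which Nrf2 binding is ascribed. They run 5′ to 3′ on the strand of the gene, and capitals mark the core, which is read on the opposite strand (as GCNNNGTCA) in Gclm, Txnrd1 and Srxn1.
Nfe2l2: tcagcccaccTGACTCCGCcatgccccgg
Gclm: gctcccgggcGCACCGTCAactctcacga
Txnrd1: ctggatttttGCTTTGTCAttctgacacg
Srxn1: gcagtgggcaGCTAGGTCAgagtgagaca
The core lay at chr2:75704895-75704903 for Nfe2l2 (gene on the minus strand), 240 bases before the start. For Gclm it lay at chr3:122245423-122245431, 134 bases before the start. For Txnrd1 it lay at chr10:82859114-82859122, 92 bases before the start of 1 of its 3 promoters, and for Srxn1 at chr2:152105552-152105560, 28 bases after the start. A match is a description of the letters and not of a bound site. The promoters of Gss, Nqo1 and Keap1 held no such letters in this window.

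Levels of different genes were compared per kilobase of exon. In AAV8-Control livers Gclc was the most abundant of the 10 at 109 ± 6.93 CPM per kb (SD, n = 5), and its lowest liver, at 102 CPM per kb, was above the highest liver of every other member. Nfe2l2 (31.3 CPM per kb), Srxn1 (31.3), Gsr (28.6) and Gclm (27.6) came next and their ranges overlapped. Nqo1 followed at 23.0 CPM per kb, Txnrd1 at 17.7 and Hmox1 at 14.8, where Txnrd1 overlapped in range with both neighbours. With livers from 18.3 to 31.3 CPM per kb, Nqo1 also overlapped with Nfe2l2, Srxn1, Gsr and Gclm, so its place below them was not separated. Keap1 (9.79 CPM per kb) and Gss (9.37) were lowest, and both stayed below the lowest Hmox1 level of 12.7 CPM per kb in these livers.

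**Figure D1:**
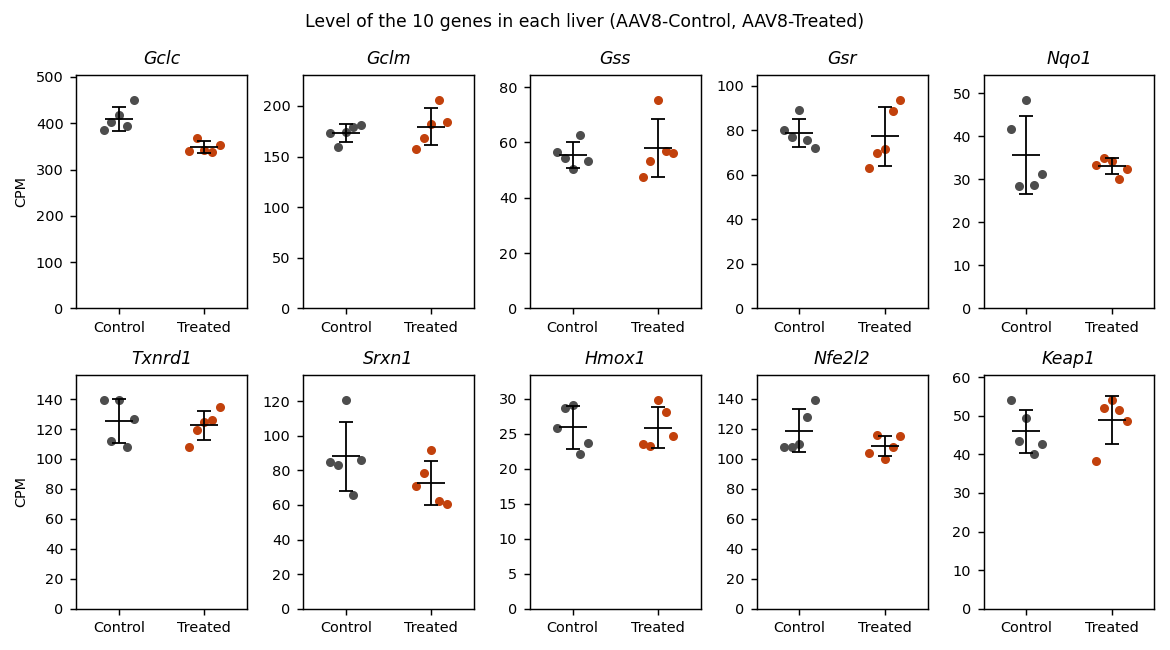
Level of each of the 10 genes in CPM (vertical axis, from 0, own scale for each gene) in AAV8-Control (grey) and AAV8-Treated (orange) livers. Each point is 1 liver, and the bars give the mean and SD of 5 livers. Gclc is the gene whose groups do not overlap, with AAV8-Treated livers at 338 to 368 CPM and AAV8-Control livers at 385 to 451 CPM.

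To ask whether forced expression of the virus-borne gene moved these genes, the groups were compared over all tested genes. Of the 10, Gclc alone differed at an unadjusted p under 0.05, and it was lower in AAV8-Treated. No member had an adjusted p under 0.05 by limma, or by edgeR or DESeq2 on the recovered reads, and each of these tools gave 1 member with an unadjusted p under 0.05. A share of 1 in 10 members stands beside 7.95% of all genes tested, and beside 2.97% of all genes that were lower with an unadjusted p under 0.05, so that a list of this length is near the background. By adjusted p, 0.0181% of all genes passed in limma, which were 2 genes, as against 2 genes in edgeR and 17 in DESeq2. The members' log2 fold changes (AAV8-Treated minus AAV8-Control, on log2(CPM + 1)) ran from -0.26 to 0.086 with a median of -0.032, beside a median of 0.019 over all genes. Of the members, 3 were higher and 7 lower, whereas 55.9% of all genes were higher.

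**Figure D2:**
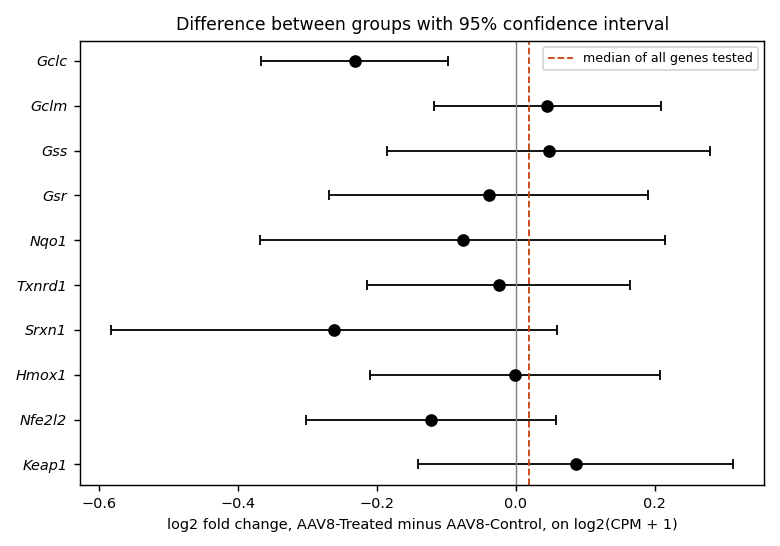
Log2 fold change of each of the 10 genes (horizontal axis, AAV8-Treated minus AAV8-Control, on log2(CPM + 1)). Points are the limma estimates, lines their 95% confidence intervals, and the dashed line the median of all tested genes at 0.019. The interval of Gclc, from -0.37 to -0.097, is the one that leaves out 0.

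Gclc (chr9:77754535-77794485, plus strand), the catalytic subunit of glutamate-cysteine ligase, was at 385, 402, 418, 393 and 451 CPM in the AAV8-Control livers and at 341, 368, 341, 338 and 353 CPM in the AAV8-Treated livers. Every AAV8-Treated liver was below every AAV8-Control liver. The mean was 409.8 ± 26.1 CPM in the AAV8-Control livers and 348 ± 12.7 CPM in AAV8-Treated (SD, n = 5), a difference of -15.0%. The log2 fold change was -0.23 ± 0.062 (SE, 95% confidence interval -0.37 to -0.097), with an adjusted p of 0.617 by limma. By its unadjusted p of 0.00265, Gclc ranked 31 among all genes tested and 12 among the 4865 that were lower. The two-sided exact permutation test gave p = 0.00794, the smallest that 5 against 5 livers allow.

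At least 7322 reads fell on Gclc in each library. In 19 of 19 alternatives of the test, Gclc was lower with an unadjusted p from 0.000349 to 0.00940, while its adjusted p ran from 0.0753 to 0.969. Groups that do not overlap were found for 0.907% of all genes and for 1 of 10 members. That separation was narrow. With TMM factors, the AAV8-Control livers lay at 367 to 454 CPM and the AAV8-Treated livers at 319 to 371 CPM, so that 1 AAV8-Treated liver passed the lowest control. DESeq2 size factors gave the same 1 overlapping liver, and the mean differences were -16.0% in both cases.

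Gclm (chr3:122245557-122270732, plus strand), the modifier subunit that raises the efficiency of the ligase, was at 174, 159, 174, 179 and 182 CPM in the AAV8-Control livers and 158, 168, 182, 206 and 184 CPM in AAV8-Treated. The groups overlapped, with 3 AAV8-Treated livers above the control range, 1 below it and 1 inside it. Its log2 fold change was 0.045 (95% confidence interval -0.12 to 0.21) with an adjusted p of 0.854 by limma, and its sign turned without AAV8-Treated liver 4. Parts of the Gclm exons overlap Gm17494 on the opposite strand (4.71%) and the pseudogene Gm6061 on the same strand (3.88%).

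As the ligase is built from both subunits, the ratio of their mRNAs was taken within each liver. The log2 ratio of Gclc to Gclm was 1.14, 1.33, 1.26, 1.13 and 1.31 in AAV8-Control and 1.10, 1.13, 0.90, 0.71 and 0.94 in AAV8-Treated. The lowest control, 1.1287, lay just below the highest AAV8-Treated liver at 1.1294, so the groups touched. The mean ratio was lower by 0.28 on the log2 scale in AAV8-Treated, 0.96 ± 0.17 against 1.23 ± 0.094 (SD, n = 5, two-sided exact permutation test, p = 0.0159). With any single liver left out, the difference stayed between -0.32 and -0.22.

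**Figure D3:**
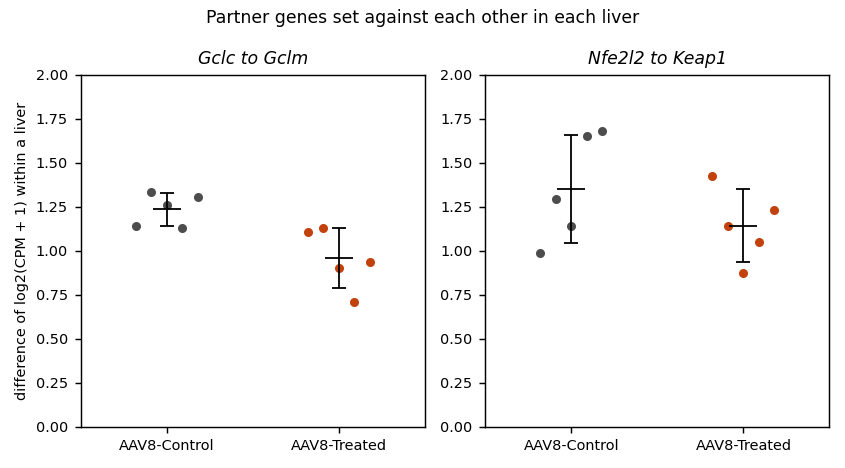
Log2 ratio of Gclc to Gclm (left) and of Nfe2l2 to Keap1 (right) in each liver, as the difference of log2(CPM + 1) on the vertical axis. Each point is 1 liver, with the mean and SD of 5. The ratio of Gclc to Gclm averages 1.23 in AAV8-Control and 0.96 in AAV8-Treated, and the groups of the second ratio overlap widely.

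Gss (chr2:155563181-155592810, minus strand), which completes glutathione, was at 56.4, 54.5, 50.4, 62.6 and 53.3 CPM in the AAV8-Control livers and 47.5, 53.2, 75.5, 56.9 and 56.0 CPM in AAV8-Treated. The level of 75.5 CPM in AAV8-Treated liver 3 stood above all other livers, and without it the log2 fold change of 0.047 turned to -0.052. On the opposite strand, Acss2 overlaps 6.68% of the Gss exons, and the antisense genes Gssos2 and Gssos1 overlap 6.51% and 5.44%. The strand setting of the counting is not stated, so reads there could belong to Gss or to these genes.

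Gsr (chr8:33652523-33698163, plus strand), the reductase of oxidised glutathione, was at 80.1, 76.9, 88.9, 75.8 and 71.9 CPM in the AAV8-Control livers and 62.9, 69.8, 71.4, 88.4 and 93.7 CPM in AAV8-Treated. In AAV8-Treated, 3 livers were below and 1 was above the whole control range, and the spread between livers was wider (17.0% of the mean against 8.12%). The log2 fold change was -0.039 (95% confidence interval -0.27 to 0.19), and its sign turned without AAV8-Control liver 3 or AAV8-Treated liver 1. For both Gss and Gsr the adjusted p by limma was high, 0.895 and 0.916.

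Among the enzymes that Nrf2 induces, Nqo1 (chr8:107388225-107403206, minus strand) reduces quinones and is the usual reporter of Nrf2 activity. It was at 41.6, 28.4, 48.5, 28.6 and 31.2 CPM in the AAV8-Control livers and 33.4, 34.9, 34.2, 30.1 and 32.4 CPM in AAV8-Treated. Control livers 1 and 3 were high and the other three low, while all AAV8-Treated livers lay inside the control range. The spread was 25.3% of the mean in AAV8-Control and 5.70% in AAV8-Treated, and the difference in spread was not tested. The log2 fold change was -0.077 (95% confidence interval -0.37 to 0.21), and it became 0.040 without AAV8-Control liver 3.

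Srxn1 (chr2:152105516-152111376, plus strand), the sulfiredoxin that repairs overoxidised peroxiredoxins, was at 84.9, 83.2, 121, 65.6 and 86.2 CPM in the AAV8-Control livers and 70.7, 78.7, 91.6, 62.2 and 60.7 CPM in AAV8-Treated. AAV8-Control liver 3 was again the highest, and 4 of 5 AAV8-Treated livers were below the control median. Its log2 fold change of -0.26 was the largest of the members in size but had a wide interval, -0.58 to 0.059, and an adjusted p of 0.625 by limma (two-sided exact permutation test, p = 0.183). Without AAV8-Control liver 3 it was -0.14, smaller in size than that of Gclc at -0.22. Srxn1 was the second member with an unadjusted p under 0.05 when AAV8-Control liver 4 or AAV8-Treated liver 3 was left out.

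Txnrd1 (chr10:82833951-82897712, plus strand), the cytosolic thioredoxin reductase, was at 139, 112, 139, 108 and 127 CPM in the AAV8-Control livers and 108, 119.5, 125, 126 and 134 CPM in AAV8-Treated. Hmox1 (chr8:75093621-75100589, plus strand), which breaks down heme, was at 25.8, 28.7, 29.2, 22.2 and 23.6 CPM in the AAV8-Control livers and 23.5, 23.2, 29.9, 28.1 and 24.7 CPM in AAV8-Treated. In neither gene did the groups separate. The log2 fold changes were -0.024 (95% confidence interval -0.21 to 0.16) for Txnrd1 and -0.0017 (-0.21 to 0.21) for Hmox1, and both signs turned with single livers left out. For Txnrd1 these were AAV8-Control livers 1 and 3 and AAV8-Treated liver 1, and for Hmox1 AAV8-Control livers 2 and 3 and AAV8-Treated livers 1, 2 and 5. Of the members other than Gclc, the intervals of Gsr, Nqo1, Srxn1 and Nfe2l2 include its log2 fold change of -0.23, and those of the other five do not.

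Nfe2l2 (chr2:75675513-75704641, minus strand), which encodes Nrf2, was at 108, 108, 110.1, 128 and 139 CPM in the AAV8-Control livers and 104, 116, 99.8, 108 and 115 CPM in AAV8-Treated. Control livers 4 and 5 were above all AAV8-Treated livers, and the other three were among them. Keap1 (chr9:21229730-21239361, minus strand), the adaptor that marks Nrf2 for degradation, was at 54.1, 43.5, 49.4, 40.1 and 42.8 CPM in the AAV8-Control livers and 38.2, 52.1, 54.1, 51.5 and 48.6 CPM in AAV8-Treated. AAV8-Treated liver 1 was the lowest of all, and the other four AAV8-Treated livers were above the control median. The antisense gene Gm16754 overlaps 10.9% of the Keap1 exons.

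The log2 fold change was -0.12 (95% confidence interval -0.30 to 0.057, adjusted p = 0.654 by limma) for Nfe2l2 and 0.086 (-0.14 to 0.31, adjusted p = 0.794) for Keap1. With single livers left out, Nfe2l2 ran from -0.15 to -0.063 and Keap1 from 0.040 to 0.17. Set against each other in each liver, the log2 ratio of Nfe2l2 to Keap1 averaged 1.35 ± 0.31 in AAV8-Control and 1.14 ± 0.21 in AAV8-Treated (SD, n = 5, two-sided exact permutation test, p = 0.238). The difference of -0.21 was within the spread between livers, and with single livers left out it ran from -0.30 to -0.13.

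Across the 10 genes no liver was extreme throughout. AAV8-Treated liver 1 had the lowest level of 4 members, Gclm, Gss, Gsr and Keap1, and AAV8-Treated liver 3 the highest level of 3, Gss, Hmox1 and Keap1. AAV8-Control liver 3, the deepest library, had the highest Nqo1 and Srxn1. To ask which members vary together, the deviations from the group means were correlated over the 10 livers for all 45 pairs. The correlation was positive in 29 pairs and negative in 16, and after adjustment over the pairs it did not pass in any of them. Without adjustment, 4 pairs had p under 0.05 by exact permutation within groups.

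Nqo1 and Srxn1 had a positive correlation (Pearson r = 0.73, exact permutation p = 0.00486, adjusted p = 0.219, Spearman rho = 0.66, p = 0.0486). Without the 2 livers farthest from the median of Nqo1 the r was 0.56. Txnrd1 and Keap1 had r = 0.77 (exact permutation p = 0.0197, adjusted p = 0.295, rho = 0.71, p = 0.0491), with 0.54 without 2 livers. Gsr and Txnrd1, the reductases of glutathione and thioredoxin, had r = 0.65 (exact permutation p = 0.0172, adjusted p = 0.295, rho = 0.65, p = 0.0222), with 0.65 without 2 livers. Hmox1 and Nfe2l2 had a negative correlation (r = -0.73, exact permutation p = 0.0318, adjusted p = 0.358, rho = -0.70, p = 0.0379), with -0.65 without 2 livers. Without the 2 livers the exact permutation p of these pairs was 0.118 to 0.358, so none of the 4 relations passed on the other 8 livers. The order of the pairs depended on the scaling, as Gclc and Nfe2l2 had 0.80 with either TMM or DESeq2 factors, the highest of the 45 pairs there. With CPM as deposited this pair had r = 0.67 (exact permutation p = 0.0747, adjusted p = 0.641, rho = 0.42, p = 0.333), and 0.065 without 2 livers, so that the relation rests on those livers. Gclc and Gclm, the subunits of 1 enzyme, had r = -0.012 (exact permutation p = 0.971, adjusted p = 0.971, rho = -0.0061, p = 1) and -0.11 without 2 livers.

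**Figure D4:**
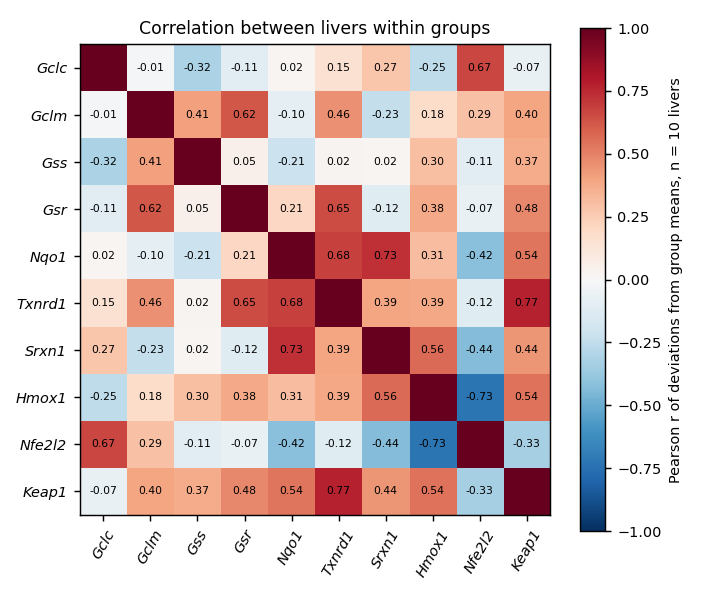
Pearson correlation between the 10 genes over 10 livers after removal of the group means, with r printed in each field and coloured from -1 (blue) to 1 (red). On this scale, with CPM as deposited, the highest value is 0.77 for Txnrd1 and Keap1, which becomes 0.61 with DESeq2 size factors and 0.60 with TMM factors, and the lowest is -0.73 for Hmox1 and Nfe2l2. After adjustment over the 45 pairs, 0 pairs pass.

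The genes most like Gclc and Nqo1 in their variation within groups were sought among 11026 other genes over the 10 livers. For Gclc these were Nvl (r = 0.94), Xkr9 (r = 0.91) and Odc1 (r = 0.90). For Nqo1 they were Top3a (r = 0.93), Sprtn (r = 0.93) and Gstm3 (r = 0.92), the last a glutathione transferase counted below among the Nrf2 targets. These are the highest of many correlations that share libraries, and no test was made of them.

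Other genes of the pathway were taken from 3 lists of 107 genes with the members left out, of which 98 were tested. An unadjusted p under 0.05 was found for 23 of these 98 genes, 8 higher and 15 lower in AAV8-Treated, beside 4.99% of all genes that were higher and 2.97% that were lower at this p. The count was 15 when AAV8-Control liver 3, AAV8-Control liver 5 or AAV8-Treated liver 4 was left out. In each of these fits the share of all genes at this p was also below the 7.95% of the main fit. It was 5.94% without AAV8-Control liver 3 and 5.30% without AAV8-Treated liver 4. After adjustment over all genes 0 passed by limma and by edgeR, and 1, Mt1, passed by DESeq2.

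**Figure D5:**
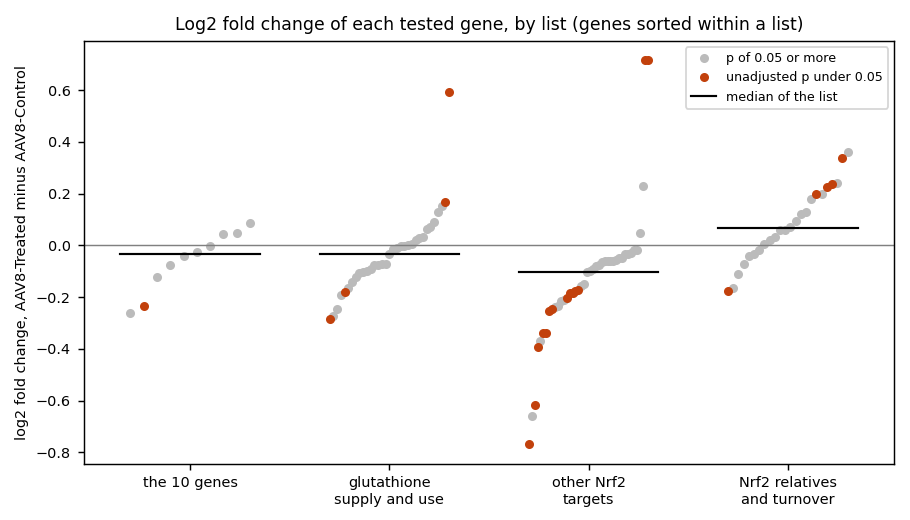
Log2 fold change (vertical axis, AAV8-Treated minus AAV8-Control) of every tested gene of the 10 members and the 3 further lists, sorted within each list. Orange points have an unadjusted p under 0.05, and black lines give the median of each list. The list of other Nrf2 targets has 38 of 42 genes below 0 and a median of -0.10.

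Of the other Nrf2 targets, 42 of 44 were tested, and 38 of them were lower in AAV8-Treated and 4 higher. Their median on the log2 scale was -0.10, beside 0.019 for all genes. An unadjusted p under 0.05 was reached by 12 lower genes, 28.6% of the list beside 2.97% of all genes, and by 2 higher genes. Genes of such a list are not independent of each other, and the list was chosen with earlier results of these data known. The counts therefore describe these livers and were not tested. Between 35 and 38 genes were lower with single livers left out, and 8 to 16 of them with an unadjusted p under 0.05. The count of 12 became 8 without AAV8-Control liver 3 or 5. The share of all genes lower at this p was then 2.46% and 2.68%.

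The 12 lower genes were Gstm1, Gstm2, Gstm3 and Mgst1, which conjugate electrophiles to glutathione, Ephx1, Aox1 and Blvrb, further enzymes of detoxification and heme breakdown, Me1 and Taldo1, which supply or support NADPH, Prdx1 and Txn1 of the thioredoxin system, and Pir. These names beyond the 2 of smallest p were given after values were seen. Gstm3 was at 400.4 to 1013 CPM in AAV8-Control (median 559) and 343 to 447 CPM in AAV8-Treated (median 406), and the groups overlapped. Its log2 fold change was -0.62 ± 0.20 (SE, adjusted p = 0.617 by limma). The highest Gstm3 level was in AAV8-Control liver 3, the liver that was also highest in Nqo1 and Srxn1. The Gstm genes are close copies of each other, so the reads that each received are uncertain.

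Blvrb, a biliverdin reductase, was at 126 to 188 CPM in AAV8-Control (median 143) and 103 to 139 CPM in AAV8-Treated (median 114), with a log2 fold change of -0.34 ± 0.11 (SE, adjusted p = 0.617 by limma). Me1, malic enzyme, is also a lipogenic gene and had a larger log2 fold change of -0.77 ± 0.29 (SE). The higher genes were the metallothioneins Mt1 and Mt2, which bind zinc and copper and also respond to metals and glucocorticoids. Mt1 was at 363 to 598 CPM in the AAV8-Control livers and 637 to 871 CPM in AAV8-Treated without overlap, a log2 fold change of 0.72 ± 0.13 (SE, adjusted p = 0.411 by limma). Groups without overlap were found for 0.907% of all genes. Mt2 was at 196 to 456 CPM and 425 to 698 CPM, with 0.72 ± 0.20 (SE) on the same scale.

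Of the genes of glutathione supply, use, turnover and export, 33 of 37 were tested, 12 higher and 21 lower, with a median of -0.033, close to that of the 10 members. Of all genes, 55.9% were higher. An unadjusted p under 0.05 was found for 12.1% of the list, beside 7.95% of all genes (4.99% higher and 2.97% lower). The 2 higher genes with an unadjusted p under 0.05 were Slc3a2 and Cth. Slc3a2, the heavy chain of several amino acid transporters, was at 43.3 to 45.3 CPM in the AAV8-Control livers and 47.0 to 53.9 CPM in AAV8-Treated without overlap (log2 fold change 0.17 ± 0.061, SE). Such a separation was found for 0.907% of all genes. Cth, which makes cysteine from cystathionine, was at 425 to 1098 CPM and 852 to 1494 CPM (0.59 ± 0.22, SE). The 2 lower ones were Ggct (7.31 ± 1.19 CPM against 5.81 ± 0.909 CPM, SD, n = 5), which breaks down gamma-glutamyl peptides, and Glo1 (164 ± 13.4 CPM against 145 ± 12.3 CPM), which clears methylglyoxal with glutathione. For these 4 genes the adjusted p was 0.617 by limma. The two-sided exact permutation test gave p = 0.00794 for Slc3a2, 0.0556 for Cth, 0.0476 for Ggct and 0.0635 for Glo1.

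Of the relatives and partners of Nrf2 and the genes of its turnover, 24 of 27 were tested, 17 higher and 7 lower. Of all genes, 55.9% were higher. The median of the list was 0.067, beside 0.019 for all genes. An unadjusted p under 0.05 was found for 4 higher genes, Fbxw11, Ep300, Chd6 and Amer1, and 1 lower gene, Skp1a. These were 20.8% of the list, beside 7.95% of all genes (4.99% higher and 2.97% lower). Skp1a, a subunit of SCF ubiquitin ligases, was at 147 to 159 CPM in the AAV8-Control livers and 131 to 145 CPM in AAV8-Treated without overlap (log2 fold change -0.18 ± 0.054, SE, adjusted p = 0.617 by limma). Groups did not overlap for 0.907% of all genes. Ep300, a histone acetyltransferase and coactivator of Nrf2, was at 29.5 to 34.0 CPM and 33.1 to 54.5 CPM (0.34 ± 0.11, SE, adjusted p = 0.617). Fbxw11, an F-box protein of the same ligases as Skp1a, was at 37.5 to 38.4 CPM and 37.1 to 49.1 CPM (0.20 ± 0.084, SE). The two-sided exact permutation test gave p = 0.00794 for Skp1a, 0.0317 for Ep300 and 0.119 for Fbxw11. Rbx1, the RING subunit shared by the Cul3 and SCF ligases, had the second smallest p among the lower genes but an unadjusted p of 0.139.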

How the data were processed

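The authors aligned single reads of 50 bases with STAR 2.0.4b to the mouse assembly of Ensembl release 76 (GRCm38.p2), counted uniquely aligned reads with featureCounts 1.4.5, and deposited CPM for protein-coding genes. All values were whole reads (100% within 0.05 reads). Exon lengths and positions came from GENCODE M21 (GRCm38.p6). A gene was tested if its mean over the libraries reached 1 CPM. The test was limma's (version 3.58.1, R 4.3.3), run on log2(CPM + 1) with a trended prior, and p-values were adjusted by Benjamini-Hochberg over all genes tested. A fold change on this scale is understated for low genes. Single values used exact permutation tests. Alternatives were edgeR 4.0.16, DESeq2 1.42.0, other scalings, filters and pseudocounts, a replicate block, and each liver left out. Counts of the Nrf2 target list under the alternatives were added after seeing the data. The members and lists were chosen with earlier results of these data known. The 2 genes of smallest p in each direction were named for each list. The labels do not tie samples to separate mice, so p-values measure the spread between these samples, which may be technical. List genes with no line in the table were not analysed here. The gene carried by the virus of the AAV8-Treated group is not reported here.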

Additional observations from a re-analysis of the deposited data

How the results depend on the processing

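Members with an unadjusted p under 0.05 numbered 2, Gclc and Srxn1, with the replicate number as a block, and 1 to 2 with single livers left out. The share of all genes at this p was 10.1% in the block and 4.27% to 13.7% with single livers left out. In the main fit it was 7.95%. Members whose groups do not overlap numbered 0 with DESeq2 size factors and 0 with TMM factors. Other pathway genes with an unadjusted p under 0.05 numbered 15 to 26 with single livers left out, in fits where 4.27% to 13.7% of all genes did. Log2 fold changes that turned sign with single livers left out ran from -0.0058 to 0.090 for Gclm, -0.052 to 0.11 for Gss, -0.11 to 0.030 for Gsr, -0.15 to 0.040 for Nqo1, -0.075 to 0.019 for Txnrd1 and -0.054 to 0.041 for Hmox1. No sign turned for Gclc, Srxn1, Nfe2l2 and Keap1 in the 19 alternatives run. In the replicate block the log2 ratio of Gclc to Gclm differed by -0.28 with a p of 0.0625 by exact sign flips, the smallest that 5 pairs allow. Deviations of livers with the same number correlated at 0.128, 0.209, 0.0751, 0.314 and 0.197. As 1 of these 5 was under 0.1 and the labels tie no number to a shared origin, the numbers were not taken as pairs, although 4 of 5 control livers correlated best with their own number, a hint from the data. In the block, Mt1 and Mt2 also passed after adjustment, among 5 of all genes, beside 2 of all genes without the block. In the same fit, 16 other Nrf2 targets instead of 12 were lower with an unadjusted p under 0.05. The share of all genes lower at this p was 3.89% with the block and 2.97% without it. The cause of these shifts was not tested. Each member had at least 489 reads in every library, and counting error was not compared with the spread between livers.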
